A study of Rattus norvegicus with 24 samples.

Results

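The genes described here are 7 genes of T cells and other leukocytes: Cd3d, Cd3e, Cd2, Cd4, Cd48, Coro1a and Rac2. They were taken as every probe set whose only gene symbol in the platform annotation is one of these names, which gave 7 probe sets, 1 for each gene, of 15866 probe sets on the array and of 10411 genes named by a single symbol. Probe sets of low value were kept. Expression was measured on Affymetrix arrays in the dorsal horn of the spinal cord, where sensory fibres from the periphery end, on the operated side of Sprague-Dawley rats. Spared nerve injury (SNI), a model of neuropathic pain, ties and cuts the sciatic nerve's common peroneal and tibial branches and spares its sural branch. It was compared with a sham operation that exposed the nerve, under isoflurane in all animals. The 4 groups were adult sham, adult SNI, neonate sham and neonate SNI, with 6 arrays in each, described in the labels as biologically independent. Adults were 8 to 12 weeks old and neonates are labelled postnatal day 10, without a statement whether this is the age at surgery or at collection. SNI tissue was taken 7 days after injury, and no day is given in the labels for sham. Pups stayed with their mothers after surgery.

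T cells recognise peptides held by MHC molecules through a receptor whose signal is passed on by the CD3 chains, with CD4 or CD8 as coreceptor and CD2 as an adhesion receptor. CD48 is a surface protein of most blood-borne cells and a ligand of CD2 and of the related receptor CD244. Coronin 1A binds actin in leukocytes, and RAC2 is a small GTPase of blood cells that drives cytoskeletal change and the phagocyte NADPH oxidase. The last 4 genes are not specific to T cells: rat macrophages and microglia are known to carry CD4, and CD48, coronin 1A and RAC2 occur in myeloid cells, with coronin 1A also known in neurons.

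The label of the gene set was borne out for leukocytes but not for T cells. Values are log2 expression, and a probe set was taken as raised above background where it exceeded 3.84 log2, the 40th percentile of all values. Cd48 and Coro1a lay above this level on 24 of 24 arrays, Rac2 on 6 and Cd4 on 3, all of them adult SNI arrays, and Cd3d, Cd3e and Cd2 on 0. The 3 genes restricted to T cells and natural killer cells thus stood below the level in every group, and the set is described below as leukocyte genes. Of all probe sets, 36.3% lay below the level on all arrays and 13.4% held the same value on all 24. The tissue label was met: of 14 dorsal horn neuron genes, 12 lay above the level on all arrays, such as Slc17a6, the vesicular glutamate transporter, at 11.43 log2 in adult sham, and Gad1, which makes GABA, at 10.87 log2.

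Because members differ in whether their levels moved, the start of 3 of their promoters is shown: Coro1a and Cd48, which rose in injured adults, and Cd3e, a T cell gene that stayed below the level. Each is the 250 bases before the gene's annotated start in RefSeq, build GRCr8, written 5′ to 3′ on the gene's own strand. They lie at chr1:190731104-190731353 on the minus strand for Coro1a, chr13:86717744-86717993 on the plus strand for Cd48 and chr8:54211771-54212020 on the minus strand for Cd3e. Capitals mark AGGAAG, the core sequence of ETS factors with a purine flank, or its reverse complement CTTCCT.
Coro1a: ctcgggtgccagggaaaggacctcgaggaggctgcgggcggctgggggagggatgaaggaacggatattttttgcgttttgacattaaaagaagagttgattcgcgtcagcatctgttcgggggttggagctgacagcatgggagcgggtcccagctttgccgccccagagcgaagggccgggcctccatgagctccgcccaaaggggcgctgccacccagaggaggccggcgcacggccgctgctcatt
Cd48: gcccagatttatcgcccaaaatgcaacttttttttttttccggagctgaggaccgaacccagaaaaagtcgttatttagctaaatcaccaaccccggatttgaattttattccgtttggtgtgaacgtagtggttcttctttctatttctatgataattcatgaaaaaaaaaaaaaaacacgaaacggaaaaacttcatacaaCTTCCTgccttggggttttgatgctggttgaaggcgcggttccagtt
Cd3e: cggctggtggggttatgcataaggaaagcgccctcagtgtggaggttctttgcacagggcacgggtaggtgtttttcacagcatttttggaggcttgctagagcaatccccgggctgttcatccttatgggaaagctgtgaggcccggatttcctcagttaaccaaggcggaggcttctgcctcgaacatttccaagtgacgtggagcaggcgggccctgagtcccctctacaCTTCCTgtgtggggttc
The search used both strands and the 6 letters AGGAAG, which 29.5% of 33469 rat promoters of this length hold. It found 1 match in Cd48, on the minus strand with its first base 47 bases before the start, and 1 in Cd3e, on the minus strand 17 bases before the start. Neither these letters nor TGTGGT, a RUNX core sequence that 14.5% of promoters hold on either strand, occurred in the Coro1a window. TGTGGT was also absent from the Cd48 and Cd3e windows. Of the members not printed, Cd3d held 1 AGGAAG match, on the minus strand 47 bases before the start. Cd2 held no AGGAAG match and 1 of TGTGGT, on the plus strand 20 bases before the start. The windows also differ in composition: the G and C share was 63.2% with 19 CpG in Coro1a, 39.2% with 11 CpG in Cd48 and 56.0% with 9 CpG in Cd3e, against medians of 51.2% and 5 over all promoters. Of the 7 genes, 5 had an entry in the promoter table. A match of letters is a description of the sequence and was not tested for binding.

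The T cell receptor chains were at the floor of the measurement. Cd3d, the delta chain of CD3, read 2.09 log2 on each of the 24 arrays, and Cd2, the adhesion receptor, read 2.11 log2 on each, with no difference above the tolerance of 1e-06. Neither can show a difference between groups. Cd3e, the epsilon chain of CD3, ranged from 2.10 to 2.94 log2. Its lowest, median and highest values were 2.16, 2.17 and 2.31 log2 in adult sham and 2.17, 2.17 and 2.94 in adult SNI. In neonates they were 2.10, 2.17 and 2.65 after sham and 2.13, 2.17 and 2.64 after SNI. The groups overlapped, and their medians were the same to 2 decimals. The means were 2.21 ± 0.068, 2.36 ± 0.32, 2.24 ± 0.20 and 2.28 ± 0.20 log2 (SD, n = 6 each) in that order. Cd3e missed the filter for testing, which asked for values above the level on at least 6 arrays. In limma without the filter its adult difference of SNI minus sham was 0.15 log2 (SE 0.12, adjusted p = 0.990), and an exact two-sided permutation test over the arrays gave p = 0.357, adjusted p = 0.470 over the 25 such tests made on the members.

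**Figure D1:**
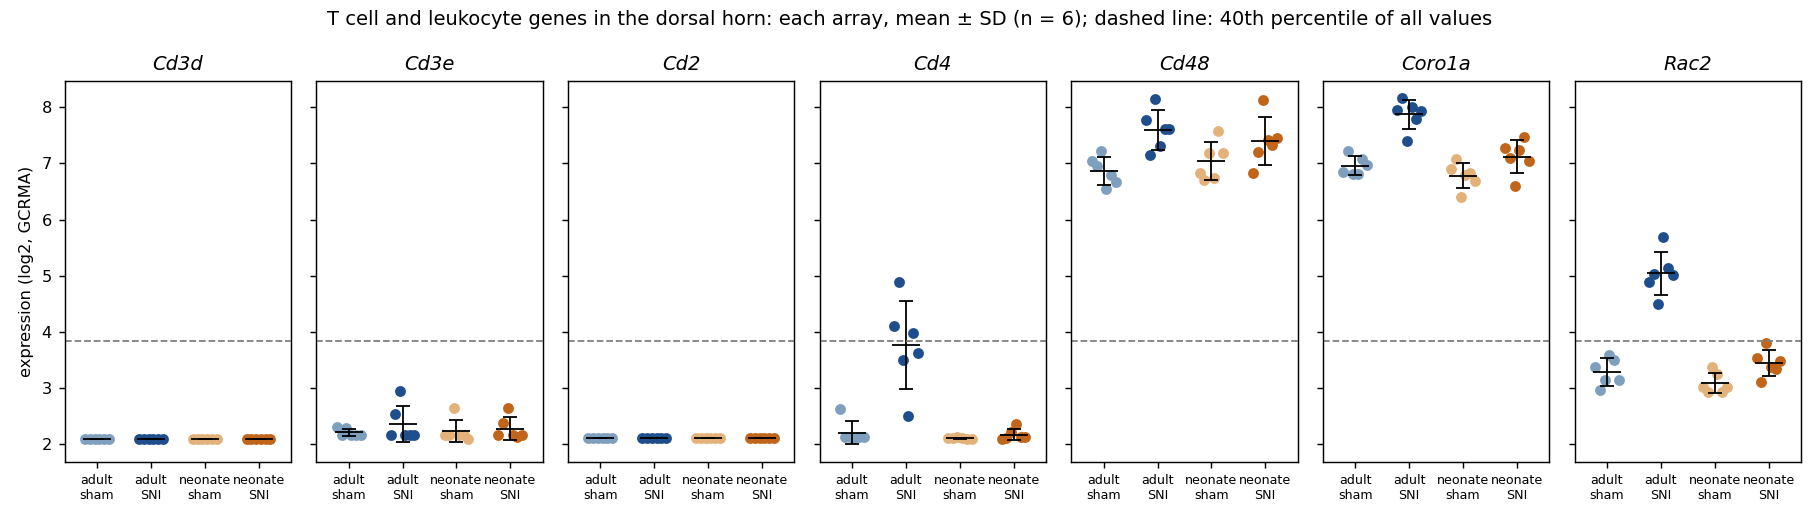
Each point is 1 array, with the log2 value of 1 member gene on the vertical axis and the 4 groups side by side; bars give the mean ± SD of 6 arrays and the dashed line is the level of 3.84 log2. Cd3d, Cd3e and Cd2 stay below the line in all groups, Rac2 and 3 arrays of Cd4 cross it in adult SNI only, and Cd48 and Coro1a lie above it on every array.

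Cd4, the coreceptor for MHC class II, was near the floor in all groups except injured adults. The lowest, median and highest values were 2.11, 2.12 and 2.63 log2 in adult sham, 2.51, 3.80 and 4.90 in adult SNI, 2.09, 2.11 and 2.12 in neonate sham, and 2.09, 2.12 and 2.36 in neonate SNI. Of the adult SNI arrays 5 lay above all adult sham arrays, while adult SNI 4 at 2.51 log2 lay below adult sham 1 at 2.63 log2. Adult SNI lay above every neonate SNI array. Since only 3 arrays exceeded the level, Cd4 was not in the filtered test. In limma on all 15866 probe sets, where 1.37% were called higher in injured adults, it rose by 1.56 log2 (SE 0.23, adjusted p = 2.9e-04), with an exact permutation p of 0.0043 (adjusted p = 0.0155 over 25 tests). The size of this rise is not settled: it was 0.25 log2 (adjusted p = 0.932) when values under the level were raised to it, and the limma adjusted p was 0.0617 when the 2 adult groups were fitted alone. In neonates Cd4 differed by 0.06 log2 (SE 0.23, adjusted p = 1). The adult effect exceeded the neonate one by 1.50 log2 (SE 0.33), which missed the threshold (adjusted p = 0.0971), where 0.183% of probe sets were called. This call appeared without adult SNI 2 (1.28 log2, adjusted p = 0.0436) and without adult SNI 4 (1.75 log2, adjusted p = 4.4e-04).

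Rac2 changed most among the members. In adult sham its lowest, median and highest values were 2.96, 3.26 and 3.59 log2, and in adult SNI they were 4.50, 5.02 and 5.68. In neonates they were 2.92, 3.02 and 3.37 after sham and 3.11, 3.43 and 3.80 after SNI. All 6 injured adults lay above the level and above the other 18 arrays, none of which exceeded it. The rise in adults was 1.76 log2 (SE 0.15, limma adjusted p = 1.3e-08), from 3.28 ± 0.24 to 5.04 ± 0.39 log2 (SD, n = 6). The mean of injured adults was 2.31-fold above the level. All sham adults lay below the level, so the rise over sham was at least that fold. With values under the level raised to it the rise was 1.21 log2 (adjusted p = 3.85e-08). Since Rac2 passed the filter through injured adults alone, these filtered p-values are no support of their own. The limma fit on all 15866 probe sets, which does not use the filter, gave an adjusted p of 2.1e-07. It called 1.37% of probe sets higher in injured adults. In bulk tissue, more cells that carry a transcript and more of it per cell cannot be told apart.

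Coro1a rose in adults by a smaller amount, from a level measured well above background. Its lowest, median and highest values were 6.81, 6.91 and 7.23 log2 in adult sham and 7.39, 7.94 and 8.16 in adult SNI. All 6 injured adults lay above all 6 sham adults. The difference was 0.92 log2 (SE 0.14, limma adjusted p = 8.5e-05), a fold of 1.89. In neonates the corresponding values were 6.41, 6.82 and 7.07 log2 after sham and 6.59, 7.16 and 7.47 after SNI, and 4 of the 6 SNI arrays lay above all sham arrays.

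Cd48 rose least. Its lowest, median and highest values were 6.55, 6.87 and 7.22 log2 in adult sham and 7.15, 7.61 and 8.15 in adult SNI, so that 5 of 6 injured adults lay above all sham adults. In neonates they were 6.71, 7.01 and 7.58 log2 after sham and 6.83, 7.38 and 8.12 after SNI, with most arrays of both groups in the same range. The adult difference was 0.73 log2 (SE 0.19, limma adjusted p = 0.0376), a fold of 1.66. This call was marginal. It was lost without the filter (adjusted p = 0.0822) and when any 1 of 8 arrays was left out, namely adult sham 2, 4, 5 or 6 and adult SNI 1, 3, 5 or 6, with differences of 0.62 to 0.82 log2 and adjusted p of 0.0132 to 0.120 over all 24 such fits.

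Of the 7 members 3 passed the filter, and these 3 were called higher in injured adults, against 1.95% of the 9638 probe sets tested. A member such as Rac2, which passed the filter through injured adults alone, had to differ there, so this count is no support of its own. All injured adults lay above all sham adults for Coro1a, a pattern found in 1.7% of probe sets, and for Rac2, where passing the filter through the 6 injured adults alone fixed it. By p-value in this comparison Rac2 ranked 19, Coro1a 73 and Cd48 184. The median difference over all probe sets tested was -0.03 log2.

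In neonates 0 members passed the test, against 0.311% of probe sets called higher by limma, and 0 showed SNI arrays all above sham arrays, against 0.436%. The differences were 0.36 log2 for Rac2 (SE 0.15, 95% interval 0.04 to 0.67), 0.34 log2 for Coro1a (SE 0.14, 0.05 to 0.62) and 0.36 log2 for Cd48 (SE 0.19, -0.03 to 0.75), each with a limma adjusted p of 1. In limma 2 members, Coro1a and Rac2, had an unadjusted p under 0.05, as did 240 of all probe sets. The exact two-sided permutation test gave p = 0.0173 for Rac2 (adjusted p = 0.0481 over 25 tests), p = 0.0563 for Coro1a and p = 0.139 for Cd48. All neonate values of Rac2 lay below the level, so that raising values to it left a difference of 0 log2, and the size of its neonate difference depends on the background model. A missed threshold does not show that the genes were unaffected. Between arrays of the same number, which were taken as paired within an age, SNI exceeded sham in 6 of 6 neonate pairs for Rac2 (by 0.13 to 0.53 log2) and for Coro1a (by 0.02 to 0.64 log2), and in 4 of 6 for Cd48. An exact two-sided permutation test within the pairs gave p = 0.0312, the smallest that 6 pairs allow, for Rac2 and Coro1a and p = 0.125 for Cd48. Adjusted over the 10 paired tests on the members at both ages the first was 0.0521. In limma with the number as a block within each age the adjusted p was 0.261 for Rac2 and 0.259 for Coro1a. The paired test was chosen after seeing the data.

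The difference of the injury effects between ages was tested directly. Rac2 rose more in adults than in neonates, by 1.40 log2 (SE 0.21, limma adjusted p = 8.7e-04), where 0.228% of 9638 probe sets were called higher. Since Rac2 passed the filter through injured adults alone, the fit on all 15866 probe sets, which does not use the filter, bears more directly on it, and gave an adjusted p of 0.00303. For Coro1a the adult effect was larger by 0.58 log2 (SE 0.19, 95% interval 0.18 to 0.98), with an unadjusted p of 0.00619 and an adjusted p of 0.756. For Cd48 it was 0.37 log2 (SE 0.27, interval -0.18 to 0.92, adjusted p = 1.00). For Coro1a and Cd48 the test missed the threshold, with intervals that still allow a larger adult effect.

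**Figure D2:**
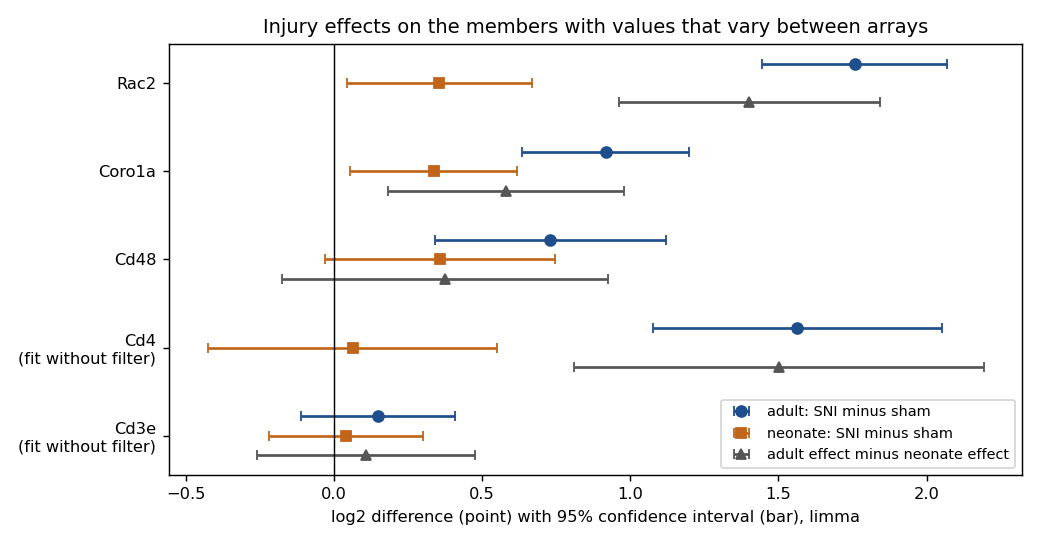
Points give the log2 difference of SNI minus sham in adults and in neonates, and the adult minus the neonate effect, for the 5 members whose values vary; bars are 95% confidence intervals from limma, not adjusted for the number of probe sets. Rac2 has an adult effect of 1.76 and a neonate effect of 0.36, the intervals of Cd48 for both ages overlap, and the Cd3e intervals all include 0.

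Compared directly, injured adults exceeded injured neonates for Rac2 by 1.60 log2 (SE 0.15, limma adjusted p = 3.3e-08) and for Coro1a by 0.75 log2 (SE 0.14, adjusted p = 2.7e-04), where 9.32% of probe sets were called higher. For Coro1a 5 of 6 injured adults lay above all injured neonates, where 4.73% of probe sets had all of them above. For Rac2 all did, but passing the filter through injured adults alone fixed this. In limma on all 15866 probe sets, where 5.61% were called higher, the adjusted p of Rac2 was 4.4e-07. For Cd4 the difference was 1.60 log2 (SE 0.23, adjusted p = 6.9e-05) in the fit without the filter, which called 5.61% higher, and 0.25 log2 (adjusted p = 0.251) with values raised to the level. Cd48 differed by 0.20 log2 (SE 0.19, adjusted p = 0.499). Between sham groups 0 members were called, against 16.3% of probe sets called in either direction by limma, and 0 members had an unadjusted p under 0.05. Those sham differences, adult minus neonate, were 0.20 log2 for Rac2, 0.17 for Coro1a and -0.17 for Cd48 (adjusted p = 0.421, 0.442 and 0.595).

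By mean level the groups ran from neonate sham through adult sham and neonate SNI to adult SNI for Rac2 (3.09, 3.28, 3.44 and 5.04 log2) and for Coro1a (6.78, 6.96, 7.12 and 7.87 log2). For Coro1a only the last step passed the exact permutation test (exact permutation p = 0.0043, adjusted p = 0.0155). For Rac2 the last step had an exact permutation p of 0.0022 (adjusted p = 0.0135), the smallest that 6 against 6 arrays allow. Passing the filter through injured adults alone fixed this separation of Rac2, so its p is no support of its own. The earlier neighbours of both genes did not pass (exact permutation p = 0.136 to 0.288). Cd48 ran from adult sham (6.87) through neonate sham (7.04) and neonate SNI (7.40) to adult SNI (7.60 log2). None of its neighbours in that order differed beyond their spread (exact permutation p = 0.344, 0.139 and 0.387), although neonate SNI stood above adult sham by 0.53 log2 (p = 0.0173, adjusted p = 0.0481). For Cd4 the 3 lower groups lay within 0.10 log2 of each other in their means, and adult SNI stood apart at 3.77 log2.

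Arrays with the same replicate number moved together for several members. Coro1a was lowest on the arrays numbered 3 in adult SNI, neonate sham and neonate SNI and was tied for lowest in adult sham, with a mean deviation from the group means of -0.38 log2. Cd48 was highest on the arrays numbered 3 in adult sham, adult SNI and neonate SNI and next to highest in neonate sham, with a mean deviation of 0.44 log2. Cd3e was likewise highest on number 3 in 3 groups and next to highest in adult sham, by 0.36 log2 on average, while Rac2 on number 3 was highest in both neonate groups (by 0.29 and 0.36 log2), lowest in adult SNI (-0.55) and next to lowest in adult sham (-0.15). Deviations of Cd48 and Coro1a from their group means correlated at -0.64 over the 24 arrays. What the number marks is not given in the labels, and its part in the results was addressed only by leaving these arrays out and by fitting it as a block. Without the 4 arrays numbered 3 the adult rises were 0.69 log2 for Cd48 (limma adjusted p = 0.0286), 0.98 for Coro1a (adjusted p = 1.8e-06) and 1.84 for Rac2 (adjusted p = 3.02e-08). With the number as a replicate block the adjusted p of Cd48 was 0.00441.

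**Figure D3:**
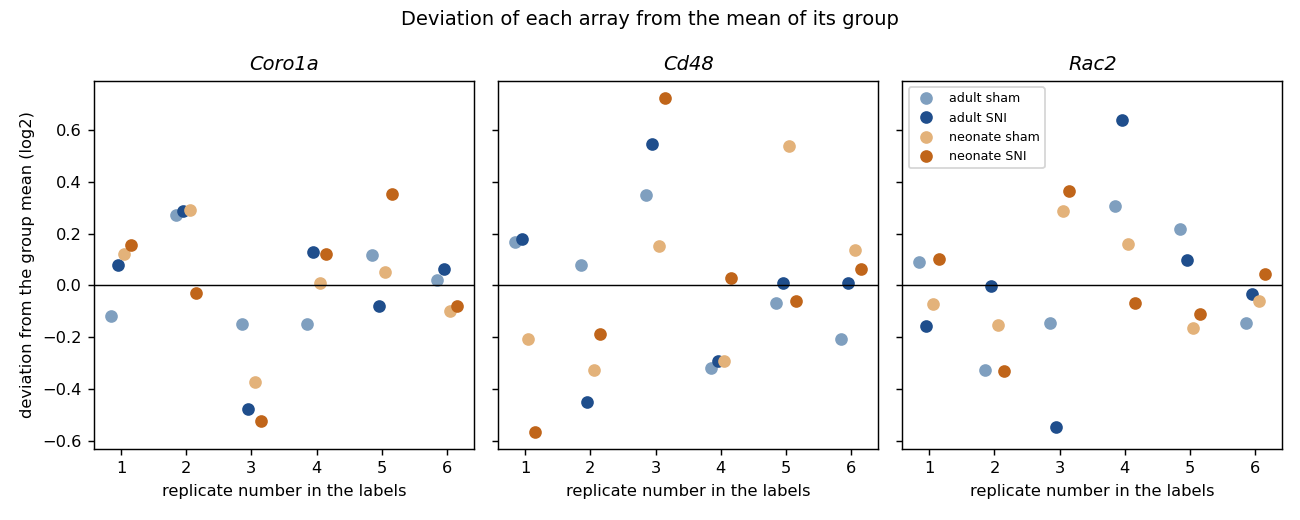
Each point is the log2 deviation of 1 array from the mean of its group, plotted against the replicate number in the labels, for Coro1a, Cd48 and Rac2. At number 3 the Coro1a points average -0.38 and the Cd48 points 0.44, while the Rac2 points lie on both sides of 0.

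Other genes of the same functions show where the members stand. Of 13 measured genes of the T cell receptor complex and its coreceptors, Cd3d, Cd3e, Cd2 and Cd4 included, 11 were above the level on no array and 6 held 1 value on all arrays. Besides Cd3d and Cd2 these were Cd3g, Cd8a, Cd8b and Cd28, which read 2.09 log2 throughout, and Ctla4, Cd247 and Cd5 had group means of 2.09 to 2.10 log2. The exceptions were Cd4 and Thy1, a glycoprotein of T cells and neurons, at 11.21 log2 in adult sham and 11.13 after SNI (difference -0.08 log2). Thy1 was the only gene of this list above the level in sham, and dorsal horn neurons are known to express it.

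Of 13 measured genes of T cell receptor signalling 6 were tested and 1 rose in injured adults, against 1.95% of all probe sets tested. The gene that rose was Ptprc, the tyrosine phosphatase CD45 of all nucleated blood cells. It ran from 2.91 to 3.08 log2 in adult sham and from 4.02 to 5.53 in adult SNI. The rise was 1.73 log2 (SE 0.21, limma adjusted p = 3.2e-06). All 6 injured adults lay above the level, enough to pass the filter, and all sham adults below it. The filter favours such a gene, so this p is no support of its own. Lck, the kinase that T cells use at the receptor, exceeded the level on 0 arrays, with group means of 2.90 to 2.91 log2. Of the 13, 4 exceeded the level on no array, Lck among them. Lcp2, Vav1 and Ptpn6, signalling proteins of both T cells and myeloid cells, exceeded it on 3, 2 and 5 arrays, all of them adult SNI. These are too few arrays for the filter. Lcp2, Vav1 and Ptpn6 were named after their values were seen, and the cells they come from were not tested.

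Several other genes of the leukocyte cytoskeleton rose in injured adults. Of 12 measured genes of leukocyte cytoskeleton and adhesion 8 were tested and 6 rose in injured adults, against 1.95% of all probe sets, with a median of 1.09 log2 against -0.03. Another 3 exceeded the level on no array. Outside the members, 4 of 6 tested rose: Arpc1b, a subunit of the actin-nucleating Arp2/3 complex, by 1.54 log2 (SE 0.27), Arhgdib by 1.40 (SE 0.23), Lcp1, the actin-bundling L-plastin, by 1.27 (SE 0.23) and Gmfg, a regulator of Arp2/3, by 0.86 (SE 0.16). In neonates 0 of the 8 passed, with a median of 0.35 log2, against 0.311% of probe sets. Between ages 1 of 8, Rac2, differed, against 0.228%. The filter favours genes raised in injured adults, so the adult and age counts are no support of their own. Of 4 measured subunits of the NADPH oxidase, Rac2 among them, Cyba, the membrane subunit p22phox, rose by 1.32 log2 (SE 0.16, adjusted p = 5.3e-06) in adults and by 1.08 log2 more than in neonates (adjusted p = 0.0453), a call lost in 22 of 33 alternatives. Cybb and Ncf1, the other 2, stayed below the level on all arrays.

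Among 13 measured pan-leukocyte genes all 6 tested rose in injured adults, against 1.95% of all probe sets tested. Their median was 1.65 log2, with Cd48 having the smallest difference. The 3 with the smallest p were Cd53, a tetraspanin of leukocytes, by 2.07 log2 (SE 0.14, adjusted p = 1.7e-10), Cd37, another tetraspanin, by 1.83 log2 (SE 0.13, adjusted p = 6.6e-10), and Laptm5, a lysosomal membrane protein, by 1.56 log2 (SE 0.16, adjusted p = 3.7e-07). In neonates 2 of 6 rose, Cd53 by 0.97 log2 and Laptm5 by 0.85 log2, against 0.311% of probe sets. Cd37 and Cd53, 2 of 6, differed between ages, against 0.228%. Another 6 of the 13 exceeded the level on no array, while 5 exceeded it on some adult sham array and 7 on some adult SNI array. Ptprc, among the 6 tested, lay below the level in adult sham. The filter favours genes raised in injured adults, so the count of 6 that rose there is no support of its own.

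**Figure D4:**
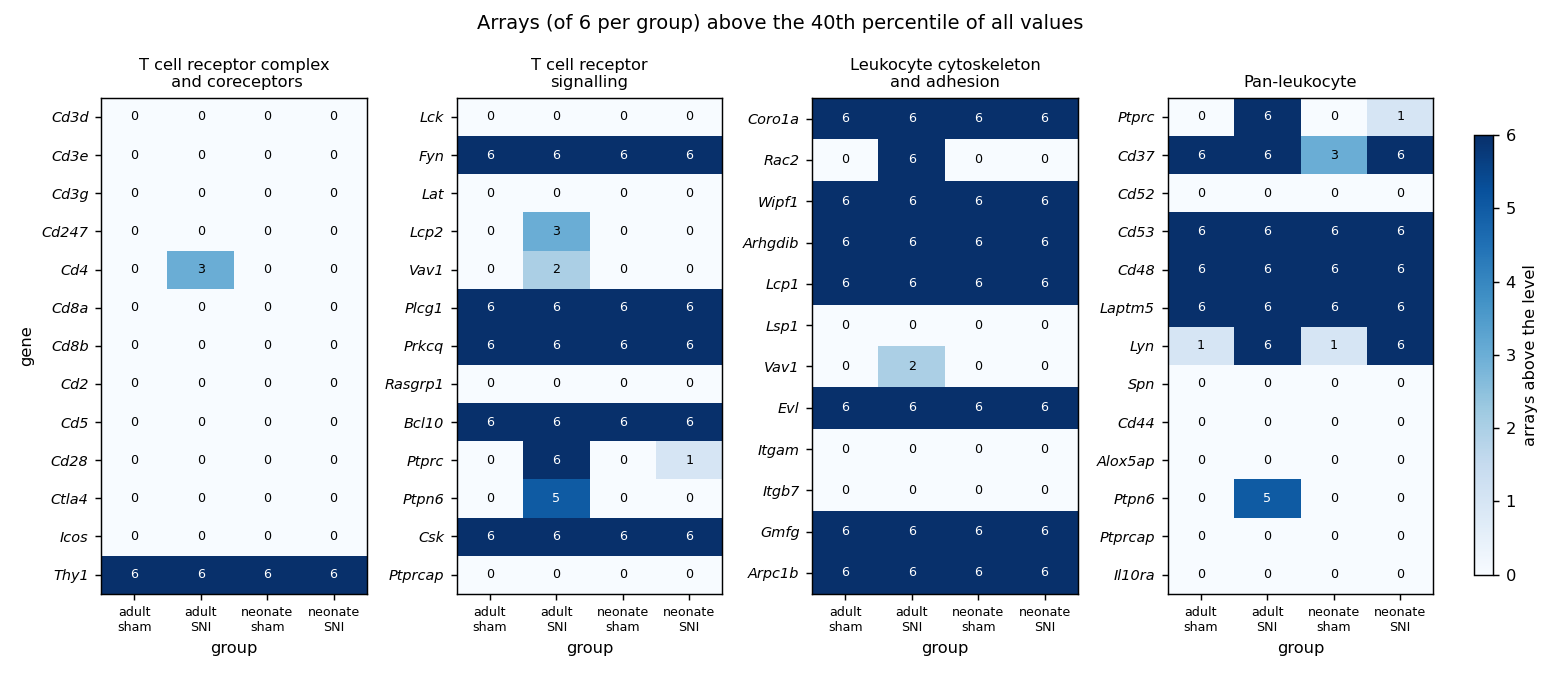
Each cell gives how many of the 6 arrays of a group exceed the 40th percentile of all values, with genes in rows and groups in columns, for 4 gene lists. The T cell receptor list reads 0 nearly throughout, apart from Thy1 and 3 adult SNI arrays of Cd4, while Rac2 and Ptprc exceed the level on 6 adult SNI arrays, Ptpn6 on 5, Lcp2 on 3 and Vav1 on 2.

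Signals to and from T cells were read from 14 measured cytokine and helper lineage genes, of which 11 exceeded the level on no array. Ifng, the cytokine interferon gamma, read 2.09 log2 on all arrays. The 2 that were tested, the receptor chains Ifngr1 and Ifngr2, rose in injured adults by 1.28 log2 (SE 0.15, limma adjusted p = 1.8e-06) and 0.60 log2 (SE 0.13, adjusted p = 0.0107). Of all probe sets tested 1.95% were called higher there. In neonates Ifngr1 rose by 0.66 log2 (adjusted p = 0.0481), a call lost in 25 of 35 alternatives. Of 23 measured chemokines and receptors linked to T cells 7 were tested and 3 rose in adults, against 1.95% of all probe sets tested. These were Cxcl13 by 5.15 log2, Cx3cr1 by 1.63 log2 and Cxcl16 by 0.92 log2. The Cx3cr1 call was lost in 4 of 34 alternatives: leaving out adult SNI 5, adult SNI 6 or adult sham 2 brought the limma adjusted p to at most 0.0544, and raising values to the level gave 0.91 log2 (adjusted p = 0.104). In neonates 0 of the 7 passed, against 0.311% of probe sets. Between ages 1 of the 7 differed, Cxcl13, against 0.228%. Leaving out each array in turn gave 4.85 to 5.33 log2 for both its adult effect and its age difference, so its neonate arrays showed no injury difference. If it passed the filter through injured adults alone, both calls were fixed. The size of a difference that starts at the floor depends on the background model.

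MHC class II presents peptide to cells with CD4. Of 14 measured genes of class II presentation and costimulation 8 were tested and 5 rose in adults, against 1.95% of all probe sets tested. These were Ifi30, RT1-DMb, Ctss, RT1-DMa and Icoslg. In neonates 3 rose, Cd74, RT1-Da and Ctss, against 0.311% of probe sets. Of these calls Ctss was lost in 26 of 35 alternatives and RT1-Da in 10. Cd74, the invariant chain, rose by 2.32 log2 in neonates (limma adjusted p = 0.00238) and differed by 1.19 log2 (SE 0.39, adjusted p = 0.186) in adults. The difference of the effects was -1.13 log2 with an adjusted p of 1.00, so the Cd74 effects were not shown to differ between ages. Over the 14 genes the mean level was 4.92 log2 in adult sham, 5.68 in adult SNI, 4.26 in neonate sham and 4.74 in neonate SNI. All 8 tested were higher in injured adults than in injured neonates, against 9.32% of probe sets. The filter favours genes raised in injured adults, so the counts that involve them are no support of their own. The Cd4 level in injured neonates, where Cd74 rose, had a highest value of 2.36 log2.

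Markers of microglia and macrophages also rose with injury, at both ages. Of 19 measured, 16 were tested, and 15 rose in adults (median 2.05 log2), against 1.95% of all probe sets tested. In neonates 9 rose (median 1.01 log2), against 0.311%, and 4 differed between ages, against 0.228%. Of the 19, 17 exceeded the level on some adult SNI array and 12 on some adult sham array. A gene that passed the filter through injured adults alone had to be higher there, so the adult and age counts are no support of their own. The mean over this list per array ranged from 5.15 to 5.55 log2 in adult sham, 7.21 to 7.68 in adult SNI, 4.80 to 5.30 in neonate sham and 5.61 to 6.11 in neonate SNI. Adult SNI lay above the other groups, as for Rac2, and neonate SNI above both sham groups. In their means Rac2, Coro1a and Cd48 also had neonate SNI above both sham groups, with arrays that overlapped. By the test, a different measure, 0 members were called in neonates. Aif1, the microglial protein Iba1, rose by 2.14 log2 in adults (SE 0.17, limma adjusted p = 2.2e-09), and Csf1r, the receptor for colony-stimulating factor 1, by 1.68 log2 (SE 0.15, adjusted p = 2.8e-08). The part of these cells in the rise of Rac2, Coro1a, Cd48 and Cd4 was not tested.

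Defining markers of other white blood cells were mostly below the level. Of 12 measured natural killer and cytotoxic genes 10 exceeded the level on no array, with Gzmb and Nkg7 at 2.09 log2, and the 1 tested, Klrk1, differed by 0.14 log2 (adjusted p = 0.852). The 1 B cell gene measured, Cd79b, read 2.09 log2 on all arrays. Of 11 neutrophil genes 10, of 9 mast cell genes 8 and of 2 dendritic cell genes 2 exceeded it on no array, and S100a9, the neutrophil gene tested, differed by -0.57 log2 in adults (adjusted p = 0.897). The 7 genes of red blood cells and platelets averaged 6.17 log2 in adult sham, 5.87 in adult SNI, 4.76 in neonate sham and 4.88 in neonate SNI, so that they differed more with age than with injury. Their 4 tested members gave 0 calls for injury at either age, where 1.95% of probe sets were called higher in adults and 0.311% in neonates. Hbb, a haemoglobin chain, differed by -0.12 log2 in adults.

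Likeness over the 24 arrays was described by the Pearson correlation with all probe sets that passed the filter and had 1 symbol. Rac2 was most like Irf8, a transcription factor of myeloid cells (r = 0.96), Tspo, a mitochondrial membrane protein (r = 0.95), and Serpinb1a, an inhibitor of neutrophil proteases (r = 0.94). Coro1a was most like Rnaset2, a lysosomal ribonuclease (r = 0.94), Ctsh, a lysosomal protease (r = 0.94), and RT1-DMa, which helps load class II molecules (r = 0.92). Cd48 was most like Rap1b, a small GTPase, Gng10, a G protein subunit, and P2ry12, the ADP receptor of microglia (r = 0.85, 0.85 and 0.84). These values include the group differences, and within groups they were 0.44, 0.50 and 0.16 for the genes like Rac2, 0.68 to 0.75 for those like Coro1a, and 0.75 to 0.78 for those like Cd48. Among the members, Coro1a and Rac2 correlated at 0.82, Cd48 and Rac2 at 0.47 and Cd48 and Coro1a at 0.27, while within groups the values were -0.12, -0.22 and -0.64. All arrays were normalized together, so the points are not wholly separate measurements.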

How the data were processed

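Per the labels' protocols, 5 ug of Trizol-extracted total RNA was converted to biotinylated cRNA for hybridisation to Affymetrix Rat 230A arrays. The deposited values are log2 expression per probe set, made by the authors with GCRMA (version not given in the sources used here), per the submitters' processing notes. They were used unchanged. GCRMA gives dim probe sets a common low value, so differences that start there depend on its background model. Of 15923 probe sets, 57 controls were removed, and the others comprised 12783 with 1 gene symbol, 312 with several and 2771 unnamed. Of those with 1 symbol 12748 matched rat genes, which changed 0 symbols. With 6 arrays in a group, their number limits the precision.

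Each probe set was fitted in limma 3.58.1 (R 4.3.3) with a mean per group over all 24 arrays (20 residual degrees of freedom, prior 3.81). Tested probe sets exceeded the 40th percentile, 3.84 log2, on at least 6 arrays. Two-sided p-values were adjusted by Benjamini-Hochberg over all 9638 tested, with a threshold of 0.05. Cd4 and Cd3e missed this filter and come from the same fit on all 15866. Exact permutation tests used SciPy 1.17.1 and figures matplotlib 3.10.9. A gene in a list is its probe set with the highest mean. The code was tested on simulated data.

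The pairing of replicate numbers was checked by correlating, over probe sets, the deviations from the group mean of sham and SNI arrays that share a number. This gave 0.10 to 0.56 for adults and, for neonates, 0.24 to 0.61. All exceeded 0.1, so the number was used as a block in an alternative. The labels do not say what it marks. Alternatives covered the filter, floor, scaling, variance model, array weights, the samples in the fit and each array left out. Leaving out the 4 arrays numbered 3, and a paired permutation test, were chosen after seeing the data.

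The members and gene lists were chosen with earlier results of these data known. Named genes were all members, up to 4 per list with the smallest p in adult injury among those that passed, otherwise defining markers, the 3 genes most correlated with each member that passed the filter, and the index genes Ifng, Ifngr1, Ptprc, Cd74, Aif1, Csf1r and Cxcl13.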

Additional observations from a re-analysis of the deposited data

Results flagged for a closer look

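The difference between ages in the injury effect of Rac2 was 1.40 log2, larger in adults, by a direct test (limma adjusted p = 8.7e-04). That fit called 0.228% of probe sets higher. Rac2 entered it through injured adults alone, so this p is no support of its own. The fit on all 15866 probe sets gave a limma adjusted p of 0.00303, where 0.183% were called higher.

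Single arrays far from the others of their group were found in 2 of the 20 combinations of member and group tested, where chance marks about 1 in 20. Cd4 read 2.63 log2 on adult sham 1, the highest of its group, with 2.12 log2 as the next highest value. Cd3e read 2.65 log2 on neonate sham 3, the highest of its group, while the median of that group was 2.17 log2. Both values lie below the level of 3.84 log2.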

How the results depend on the processing

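With the filter at the 60th percentile, 6.88 log2, Rac2 left the fit, so the count of members that differed between ages fell from 1 to 0 and that of members higher in injured adults than in injured neonates from 2 to 1. No member's difference turned direction in a called result. The adult calls of Rac2 and Coro1a passed in every alternative in which they were fitted, and the Rac2 age difference passed wherever it was fitted. Leaving out each array in turn gave 1.63 to 1.87 log2 for the adult effect of Rac2, 0.86 to 1.01 for Coro1a, 0.62 to 0.82 for Cd48 and 1.34 to 1.82 for Cd4, and 1.27 to 1.51 for the age difference of Rac2. With a replicate block by number, the same members were called, and the adjusted p of the Coro1a age difference was 0.0614. Calls over all probe sets in injured adults were 188 higher and 5 lower as reported, 264 and 33 with the block, 221 and 15 with array weights, and 102 and 4 with the 60th percentile filter. Calls for neonate injury were 30 as reported and 18 higher when only the 2 neonate groups were fitted. For the difference between ages they were 22 as reported, 6 with the 60th percentile filter and 33 with array weights, and in the fit without the filter 29, 46 higher with array weights and 18 with a block within each age. Between sham groups, 724 higher and 849 lower became 1091 and 1377 with the block. Among 58 results of genes outside the members, 112 of 1998 alternatives lost a call, in 11 results, and 0 turned direction. A second probe set could not be tried, as each member has 1. The difference between ages could not be fitted from 1 age alone. Most members' values at the floor limit what can be detected, so a low transcript of Cd3d, Cd3e or Cd2 is not shown to be absent.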
